A study of Marchantia polymorpha and Arabidopsis thaliana with 54 samples.

Results

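The xyloglucan endotransglucosylase/hydrolase genes (XTH) and the alpha-expansin genes (EXPA) encode the main wall-loosening proteins of plants. The genes were taken by family and name, with earlier results of these data known, and other expansins are described apart. They were XTH1 to XTH33, EXPA1 to EXPA18 and EXPA20, in all 33 XTH and 19 alpha-expansin genes. These 52 genes stood among 27655 genes in a table of RNA-seq read counts from Arabidopsis thaliana seedlings, and 50 of them passed the filter on low counts. XTH1 (2 counts over all 18 libraries) and XTH3, which can join cellulose chains as well as xyloglucan (10 counts in the heated and 2 in the control libraries of Col-0, and 8 in the control libraries labelled eTK), did not pass it.

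A primary wall is held together by cellulose microfibrils tethered by xyloglucan. XTH proteins cut a xyloglucan chain and join the cut end to another chain, or in a few members to water, and expansins loosen the contacts between wall polymers in acid walls without cutting them. Both families are known as targets of growth hormones, light and mechanical stimulation, and many members mark one organ or cell type, such as root hairs.

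All seedlings were 7 days old and grew on agar medium with sucrose at 22 °C in continuous light. Control seedlings were taken without heat and heated seedlings after 1 h at 37 °C. Col-0, the wild type, gave 6 control and 3 heat libraries, and the line labelled eTK, given as a triple knockout of hsfa1a, hsfa1b and hsfa1d, gave the same numbers. Replicates 1 to 3 of every group were of batch 1 and control replicates 4 to 6 of batch 2, so heat was measured in batch 1 only. HSFA1 factors switch on the heat shock response. The accession behind eTK is not given in the sources used here, and RNA came from whole seedlings, so that fewer cells of a type and less RNA per cell cannot be told apart.

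Libraries held 58370609 to 110875442 counts. In control, HSFA1B and HSFA1D were lower in the libraries labelled eTK (1.45 against 12.4 CPM and 5.55 against 14.6 CPM). HSFA1A was higher (12.1 against 6.24 CPM, adjusted p = 9.1e-06 by edgeR), although the label gives it as knocked out. Counts over a whole gene do not show whether its transcript is intact, so they cannot decide on that label. HSP101, a chaperone made in heat, rose by 10.84 on the log2 scale in Col-0 and by 1.11 in the libraries labelled eTK. Levels are given as CPM, counts relative to library totals scaled by trimmed-mean (TMM) factors. A gene was called where edgeR's quasi-likelihood test gave a Benjamini-Hochberg adjusted p below 0.05 over 22696 genes. Differences are log2 values ± SE unless a mean ± SD is named, with 6 control and 3 heat libraries in each line. With library size alone as the scale, the median of all genes in Col-0 heat fell by 0.715, and the heat response of 6 XTH genes depends on that choice as given below. Col-0 control replicate 6 stood apart from the other 5 for 6 members and Col-0 control replicate 4 for 3.

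The stretches from 250 bases before to 50 bases after the annotated start of 6 genes are printed because the results turn on these genes: XTH22 and XTH23 rose most in Col-0 heat, XTH12 and XTH13 are neighbours with unlike responses, and XTH31 and XTH33 hold paired heat shock units and differed between the lines in their heat response. They were read 5′ to 3′ on the gene's strand from the RefSeq genome TAIR10.1, at chr5:23308631-23308930 (minus strand) for XTH22, chr4:13128144-13128443 (plus) for XTH23, chr5:23301640-23301939 (minus) for XTH12, chr5:23304046-23304345 (minus) for XTH13, chr3:16448795-16449094 (minus) for XTH31 and chr1:3480992-3481291 (minus) for XTH33. Capitals mark matches to the motifs described after them.
XTH22: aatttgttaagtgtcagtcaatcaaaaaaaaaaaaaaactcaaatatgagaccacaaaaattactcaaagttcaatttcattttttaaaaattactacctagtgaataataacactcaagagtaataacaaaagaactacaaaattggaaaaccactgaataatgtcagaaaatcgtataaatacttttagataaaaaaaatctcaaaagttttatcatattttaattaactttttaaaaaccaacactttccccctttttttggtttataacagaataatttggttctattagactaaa
XTH23: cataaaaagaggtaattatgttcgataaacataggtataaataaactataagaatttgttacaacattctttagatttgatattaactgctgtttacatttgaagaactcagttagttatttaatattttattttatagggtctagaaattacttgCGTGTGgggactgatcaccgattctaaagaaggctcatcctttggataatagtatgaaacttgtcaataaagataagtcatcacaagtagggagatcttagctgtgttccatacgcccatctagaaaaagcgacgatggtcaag
XTH12: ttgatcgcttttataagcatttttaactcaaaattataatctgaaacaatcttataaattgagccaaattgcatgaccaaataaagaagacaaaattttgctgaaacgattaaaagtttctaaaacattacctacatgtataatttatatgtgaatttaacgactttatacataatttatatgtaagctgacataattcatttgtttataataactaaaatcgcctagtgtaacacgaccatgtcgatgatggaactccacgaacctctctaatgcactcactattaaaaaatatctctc
XTH13: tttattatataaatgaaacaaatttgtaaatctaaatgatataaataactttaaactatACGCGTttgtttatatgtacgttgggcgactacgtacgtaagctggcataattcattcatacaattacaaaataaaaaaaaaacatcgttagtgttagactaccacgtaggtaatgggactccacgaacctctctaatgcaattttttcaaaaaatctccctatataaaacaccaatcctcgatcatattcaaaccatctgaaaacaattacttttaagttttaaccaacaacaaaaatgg
XTH31: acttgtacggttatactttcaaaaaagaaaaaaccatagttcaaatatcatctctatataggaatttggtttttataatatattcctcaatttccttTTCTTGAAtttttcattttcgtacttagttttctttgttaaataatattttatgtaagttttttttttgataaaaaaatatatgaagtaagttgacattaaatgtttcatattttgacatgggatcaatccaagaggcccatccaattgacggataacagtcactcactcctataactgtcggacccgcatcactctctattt
XTH33: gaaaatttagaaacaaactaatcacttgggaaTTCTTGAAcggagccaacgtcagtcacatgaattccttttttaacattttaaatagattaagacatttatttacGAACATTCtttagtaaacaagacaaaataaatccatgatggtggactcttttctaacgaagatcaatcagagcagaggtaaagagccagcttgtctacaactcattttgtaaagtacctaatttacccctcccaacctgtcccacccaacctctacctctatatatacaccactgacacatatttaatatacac

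The motifs were searched on both strands of this window in all 52 members and in 27443 promoters. GAANNTTC, a pair of heat shock units, was found in XTH33, EXPA12, EXPA14 and EXPA15 and in 11.6% of all promoters. TTCNNGAA, the pair in the other order, was found in XTH31, XTH33 and EXPA3 and in 9.16% of all promoters. In XTH33 the pairs began at positions −218 and −144 from the annotated start, and in XTH31 the pair began at −153. Runs of 3 such units in alternating order, beginning with GAA or with TTC, were in 0 members and in 0.481% of all promoters each. CGCGT, which holds the core bound by CAMTA factors, was in XTH13, XTH18, XTH20, EXPA6 and EXPA12 and in 8.7% of all promoters, with overlapping matches on both strands in XTH13 and EXPA12. CGTGTG, a brassinosteroid element, was in XTH2, XTH8, XTH23, XTH25, EXPA1, EXPA2 and EXPA6 and in 6.52% of all promoters. CACGTG, the G-box, was in 0 members and 7.68% of all promoters. XTH22 and XTH12 held none of the 7 motifs in these letters. The part of these motifs in the heat responses was not tested, and XTH31 and XTH33 differed between the lines in opposite directions.

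Levels of members were compared per length. By RPKM (CPM per kilobase of exon) the highest in Col-0 control were XTH7 with 368 ± 201 and XTH4 with 319 ± 56.1 (mean ± SD, n = 6), whose ranges over libraries overlap. EXPA1, an expansin of guard cells and lateral roots, followed with 163 ± 23.6 and XTH24, a gene first found in meristems, with 117 ± 24.7. In the control libraries labelled eTK the same genes led, XTH4 with 446 ± 141 and XTH7 with 295 ± 140. XTH22, the touch-induced gene TCH4, was only the 33rd of the members in Col-0 control, at 7.44 ± 0.722 RPKM. In Col-0 heat it ranked 1st, at 390 ± 100 RPKM (n = 3), and XTH7 was 2nd at 369 ± 120, a difference smaller than either SD. In the heated libraries labelled eTK XTH22 was 4th at 194 ± 20.4 RPKM.

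On the TMM scale the summed level moved unlike in the families. Summed over the 19 alpha-expansin genes taken, Col-0 held 667 ± 56.4 CPM in control against 285 ± 19.5 CPM in heat. The libraries labelled eTK held 698 ± 31.8 and 328 ± 26.1 CPM. The ranges do not overlap in either line: the lowest control sums were 625 and 663 CPM, the highest heat sums 306 and 351 CPM. The summed XTH genes held 1859 ± 368 CPM in Col-0 control and 2554 ± 537 in heat, and 1929 ± 240 and 2477 ± 160 CPM in the libraries labelled eTK. In Col-0 these XTH sums overlapped (control up to 2541, heat from 2083 CPM). As a share of all counts, without TMM factors, XTH genes held 0.206 ± 0.043% in Col-0 control and 0.167 ± 0.033% in heat. Alpha-expansin genes held 0.0737% and 0.0187%. In the libraries labelled eTK the shares were 0.214% and 0.252% for XTH and 0.0772% and 0.0334% for alpha-expansin genes. Without XTH22 the XTH sums were 1847 ± 369 and 1934 ± 389 CPM in Col-0, a difference within the SD, and 1910 ± 234 and 2169 ± 136 CPM in the libraries labelled eTK.

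**Figure D1:**
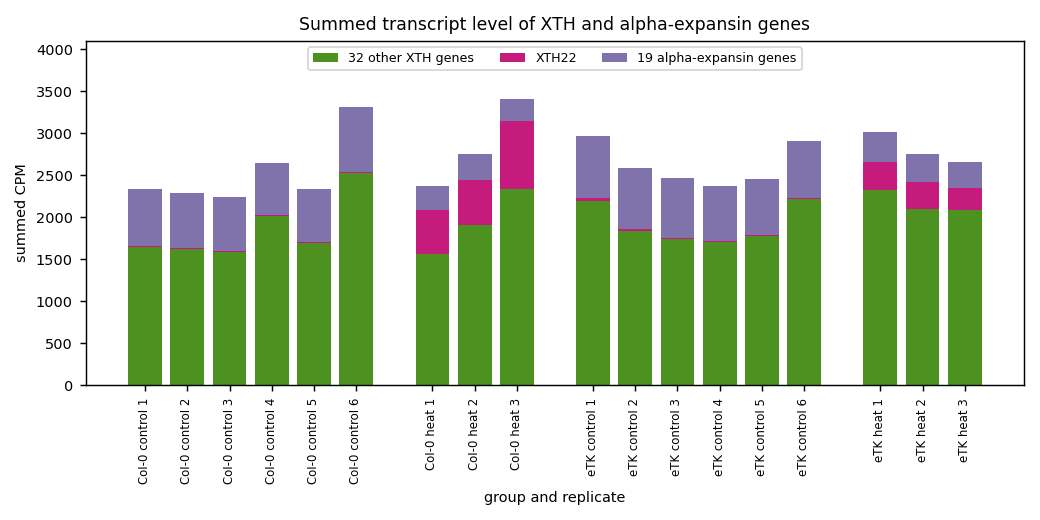
Summed CPM (vertical axis) of the alpha-expansin genes, XTH22 and the other XTH genes in each of the 18 libraries (bars), in the 4 groups. Alpha-expansin sums lie between 625 and 775 CPM in Col-0 control and between 267 and 306 CPM in Col-0 heat, and the share of XTH22 is visible in heat only.

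In Col-0 heat, more members were lower than higher. Of the 50 tested, 26 were called lower and 8 higher, where 32.4% and 31.2% of all tested genes were called lower and higher (63.7% in either direction). By 1 or more on the log2 scale 17 were lower and 2 higher, against 15.5% and 9.14% of all genes. The median member difference was −0.69 and that of all genes −0.04. The families differed in make-up: 14 of 19 alpha-expansin genes were lower and 0 higher (median −1.39), and of 31 XTH genes 12 were lower and 8 higher (median −0.47). Scaled by library size alone, 37 members fell and 2 rose, where 67.4% of all genes fell and 8.20% rose. The calls of the 6 smaller XTH rises named below, and the sign of XTH5, XTH31 and XTH32 among them, depend on the scaling. In batch 1 alone 25 members were lower and 10 higher, against 32.4% and 31.6% of all genes in that fit.

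XTH22 (AT5G57560, TAIR10.1 chr5:23307006-23308680, minus strand) rose most. Its level in Col-0 control lay between 10.3 and 13.0 CPM with a median of 12.2, and the heat libraries held 526, 531 and 805 CPM. All heat libraries stood far above all controls, and the difference was 5.46 ± 0.27 (adjusted p = 1.37e-11) and 5.60 in batch 1 alone. XTH23 (AT4G25810, chr4:13128394-13129927, plus strand), with 80.9% of coding bases in common with XTH22, was second. It ranged from 5.54 to 20.3 CPM in Col-0 control (median 9.05) and reached 159, 165 and 220 CPM in heat. The groups did not overlap, and the difference was 4.49 ± 0.32 (adjusted p = 2.17e-09). XTH23 controls of batch 2 (11.8 to 20.3 CPM) lay above those of batch 1 (5.54 to 6.28 CPM), and within batch 1 the rise was 4.94.

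The other 6 calls for higher XTH levels in Col-0 heat were small, and library size alone removed all of them. They were XTH18, an XTH of roots, by 0.95 ± 0.23, XTH24 by 0.81 ± 0.28, XTH7 by 0.73 ± 0.22, XTH32 by 0.65 ± 0.15, XTH5 by 0.46 ± 0.16 and XTH31 by 0.44 ± 0.15 (adjusted p from 0.000966 to 0.019). Scaled that way, XTH18, XTH24 and XTH7 were at 0.23, 0.08 and 0.02, and XTH5, XTH31 and XTH32 turned to −0.25, −0.27 and −0.07, none of them called. Other settings or left-out libraries removed some calls too. Of 27 alternatives, XTH5, XTH31, XTH24 and XTH7 held in 22, 24, 24 and 25, and XTH18 and XTH32 in 26 each. XTH31 and XTH32 form group III-A, the members that act mainly as xyloglucan hydrolases. XTH31 (AT3G44990) was at 53.6 to 168 CPM in Col-0 control (median 100.1) and at 76.1, 106 and 87.3 CPM in heat. Against all controls the heat libraries lay inside the range, whereas against batch 1 controls alone (53.6 to 71.6 CPM) all 3 lay above it. XTH32 likewise was at 16.8 to 17.7 CPM in heat, under the Col-0 control mean of 21.3 CPM, above the batch 1 controls (11.5 to 12.6 CPM) and below those of batch 2 (24.8 to 38.7 CPM). Its positive difference thus holds against the controls of its own batch, and it was 0.52 in batch 1 alone.

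**Figure D2:**
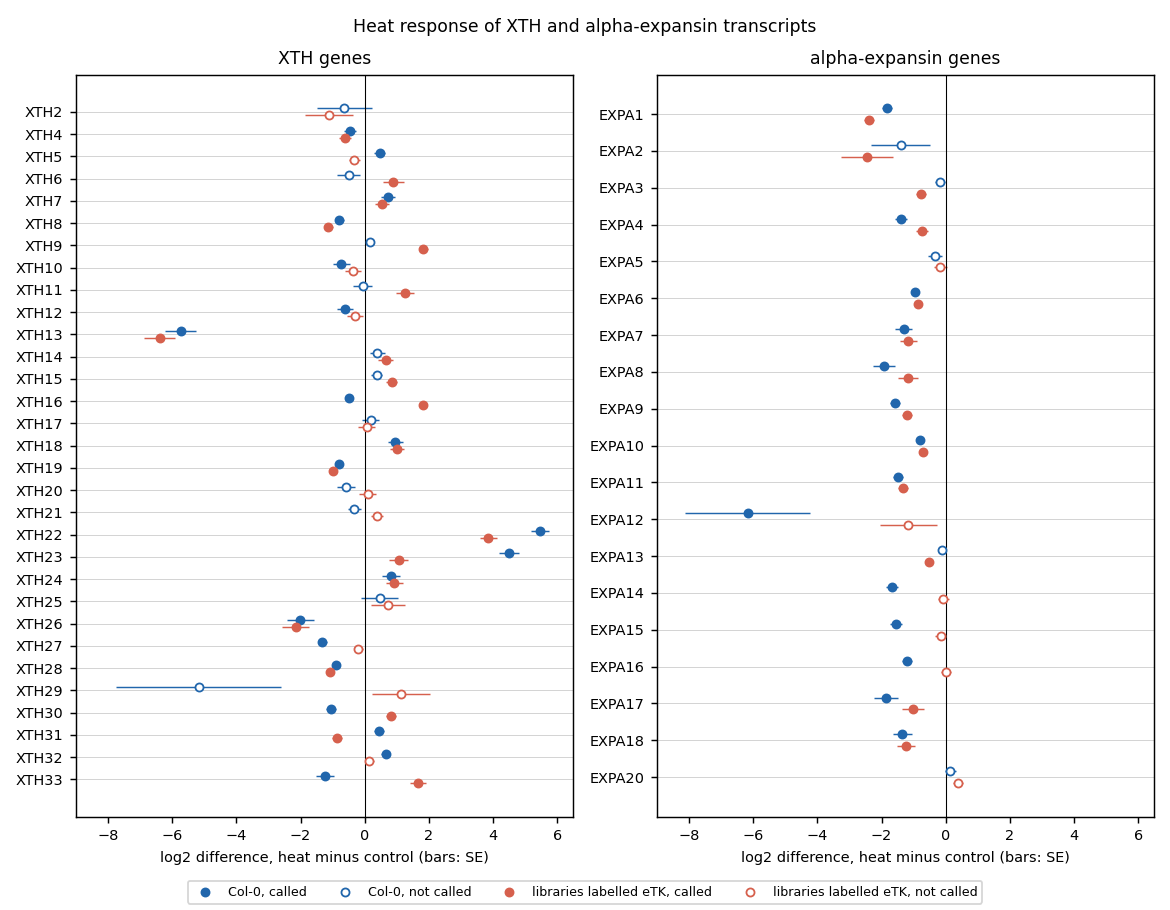
Log2 difference of heat against control (horizontal axis, bars: SE) for the 31 tested XTH and 19 alpha-expansin genes in Col-0 and in the libraries labelled eTK, with filled points for called differences. XTH22 and XTH23 stand at 5.46 and 4.49 in Col-0, alpha-expansin points lie mostly left of 0, and the smaller XTH rises in Col-0 (XTH5, 7, 18, 24, 31 and 32) are lost or change sign with library size alone.

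Adjacent XTH genes responded unlike each other. Along chromosome 5, XTH12, XTH13, XTH25 and XTH22 lie side by side on the minus strand between 23300321 and 23308680. XTH13 (AT5G57540), an XTH of roots, was at 3.91 to 11.8 CPM in Col-0 control (median 5.38) and at 0.168, 0.0512 and 0.106 CPM in heat, with 14 counts over the 3 heat libraries. Every heat library lay far under every control, a difference of −5.74 ± 0.49 (adjusted p = 1.26e-08, and −5.58 in batch 1 alone). XTH12 (AT5G57530), also of roots and identical to XTH13 at 89.7% of 855 aligned coding bases, was at 6.07 to 16.1 CPM in control (median 8.22) and at 5.38, 6.22 and 5.12 CPM in heat. These groups overlap, and the difference of −0.61 ± 0.26 (adjusted p = 0.044) was lost in 12 of 27 alternatives. The ratio of XTH13 to XTH12 counts was 0.644 to 0.731 in every Col-0 control library and 0.00823 to 0.0312 in the heat libraries. XTH12 and XTH13 share no run of 50 identical coding bases, but how the authors' counting treated reads that fit more than one gene is not given in the sources used here. XTH25, between XTH13 and XTH22, had 0.264 ± 0.129 CPM without heat and 0.466 ± 0.384 CPM with it and did not pass (0.46 ± 0.56, adjusted p = 0.495).

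On chromosome 4, XTH24, XTH18 and XTH19 form a second row. XTH24 and XTH18 were called higher in Col-0 heat, though not with library size alone, and XTH19, a root gene whose transcripts follow auxin, was lower. XTH19 was at 16.0 to 20.9 CPM in control (median 18.7) and at 11.4, 9.73 and 11.1 CPM in heat. The groups did not overlap (−0.81 ± 0.12, adjusted p = 6.95e-06). XTH18 and XTH19 are identical at 89.0% of aligned coding bases. They share 19 windows of 50 bases, counted at every start position, so windows overlap and are not separate stretches. Some reads could therefore fit both genes. XTH23 and XTH14, a root hair XTH, are neighbours too, and XTH14 was not called in Col-0 (0.39 ± 0.25, adjusted p = 0.172).

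**Figure D3:**
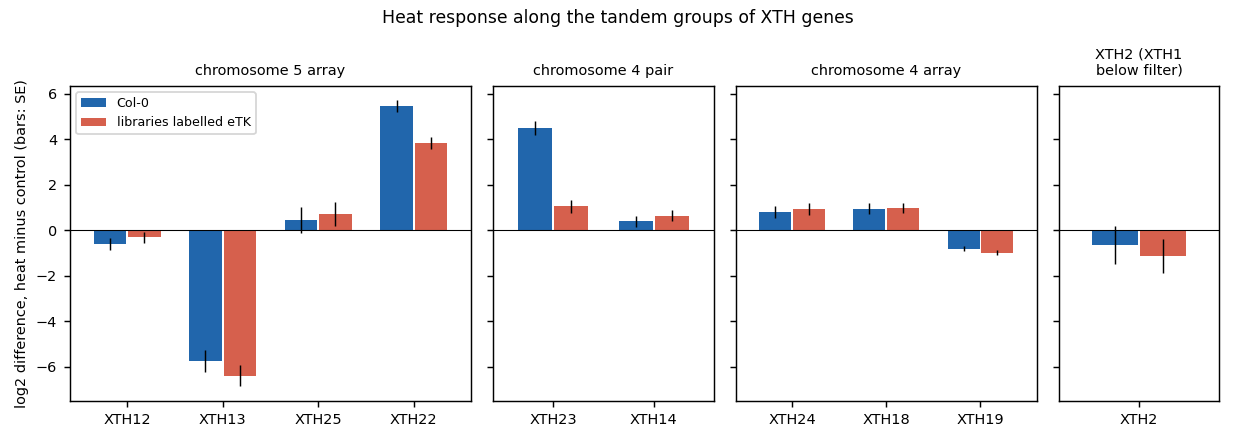
Log2 difference of heat against control (vertical axis, bars: SE) for neighbouring XTH genes in Col-0 and in the libraries labelled eTK. In the chromosome 5 row XTH13 stands at −5.74 and XTH22 at 5.46 in Col-0 heat, and in the row of XTH24, XTH18 and XTH19 the last is the one below 0.

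XTH26, the other root hair member, fell with XTH13. It was at 3.43 to 13.2 CPM in Col-0 control (median 5.74) and 1.47, 2.05 and 1.00 CPM in heat, with no overlap (−2.02 ± 0.43, adjusted p = 0.000493). Root hair markers moved in the same libraries. Of 8 such genes 6 were called lower and 0 higher in Col-0 heat (median −1.08), against 32.4% and 31.2% of all genes. LRX1, a wall protein of root hairs, fell by 2.46 ± 0.23. The summed root hair markers were at 76.7 to 188 CPM in Col-0 control, highest in replicate 4, and at 50.9 to 67.3 CPM in heat, and none of the markers was at 0. Replicate 4 was also the highest Col-0 control for XTH12, XTH13 and XTH26. The part of these markers in the XTH results was not tested.

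In group III-B, the branch of the family with XTH27 to XTH30 and XTH33, 4 of 5 genes were called lower in Col-0 heat and 0 higher (median −1.24), against 32.4% and 31.2% of all genes. XTH27, an XTH of leaf veins, went from 94.7 ± 10.9 to 36.7 ± 10.1 CPM (−1.32 ± 0.14, adjusted p = 2.58e-07). XTH33 (AT1G10550) was at 1.76 to 3.24 CPM in control (median 2.32) and at 0.967, 1.69 and 1.27 CPM in heat. All heat libraries lay under all controls, if narrowly (−1.24 ± 0.29, adjusted p = 0.00103). XTH30, an XTH known from salt responses, was at 20.5 to 29.0 CPM in control (median 23.8) and at 8.22, 11.3 and 15.6 CPM in heat, also without overlap (−1.05 ± 0.17, adjusted p = 2.84e-05). XTH28, an XTH of stamen filaments, fell by 0.89 ± 0.10 (adjusted p = 6.23e-07). XTH29, described elsewhere in drought and heat, had 0 counts in Col-0 heat and 56 counts in the 6 controls, and was not called (adjusted p = 0.09). A floor of 3 counts over the heat group stands at 0.0241 CPM.

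The remaining XTH calls in Col-0 heat were modest falls. XTH8 fell by 0.79 ± 0.14, XTH10 by 0.73 ± 0.27 (lost in 2 of 27 alternatives), XTH16 by 0.48 ± 0.091 and XTH4 by 0.47 ± 0.18 (lost in 3 of 27). XTH2, XTH6, XTH9, XTH11, XTH14, XTH15, XTH17, XTH20, XTH21, XTH25 and XTH29 were not called, with adjusted p from 0.0665 to 0.849. XTH15, known from shade responses, overlaps the opposite-strand gene AT4G14120 by 382 bases, and without a stated strand setting their reads cannot be told apart.

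Among the alpha-expansin genes, 12 of the 14 calls in Col-0 heat were falls by 1 or more on the log2 scale. EXPA1 (AT1G69530), the most abundant, was at 206 to 318 CPM in control (median 244) and at 75.2, 72.0 and 60.3 CPM in heat. The heat libraries lay far below all controls (−1.84 ± 0.15, adjusted p = 5.42e-09). EXPA8, EXPA17, EXPA14 and EXPA9 fell by 1.93 ± 0.35, 1.86 ± 0.37, 1.68 ± 0.19 and 1.58 ± 0.15, EXPA14 and EXPA17 being expansins of lateral root formation. EXPA15, expressed at the shoot apex, and EXPA11 fell by 1.55 ± 0.19 and 1.49 ± 0.16. EXPA4 and EXPA16 fell by 1.39 ± 0.19 and 1.22 ± 0.15. The root hair expansins EXPA7 and EXPA18 fell by 1.32 ± 0.26 and 1.36 ± 0.30, beside the root hair markers given above. EXPA6 and EXPA10, an expansin of leaf growth, fell by 0.95 ± 0.11 and 0.82 ± 0.11. EXPA2, EXPA7 and EXPA18 overlap opposite-strand genes by 61, 23 and 46 bases, whose reads cannot be told apart without a stated strand setting.

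EXPA12 had the largest fitted change of the family, on few counts. It was at 0.0318 to 0.317 CPM in Col-0 control (median 0.111), with 73 counts in all, and at 0 in all 3 heat libraries. Its pooled control level was 5.71 times a floor of 3 counts over the heat group (adjusted p = 0.0112). Neither this ratio, which leaves out the sampling error of the controls, nor the fitted −6.17 is a bound. EXPA2, EXPA3, EXPA5, EXPA13 and EXPA20 were not called in Col-0 heat (adjusted p from 0.185 to 0.446). Of these, EXPA3 was at 62.0 ± 8.44 and 59.8 ± 5.89 CPM, and EXPA5, an expansin of brassinosteroid responses, at 22.1 ± 9.32 and 13.9 ± 3.78 CPM.

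In the heated libraries labelled eTK, alpha-expansin genes were again called lower only, whereas 13 XTH genes were called higher and 7 lower. Of 50 members 20 were lower and 13 higher, where 28.7% and 27% of all genes were called (55.7% in either direction), and by 1 or more 12 were lower and 6 higher against 10.3% and 6.79%. The median member difference was −0.25 and that of all genes −0.01. Of the alpha-expansin genes 13 of 19 were lower and 0 higher (median −0.88), and over the 31 XTH genes the median was 0.37. In batch 1 alone 21 members were lower and 16 higher, against 28.9% and 27.3% of all genes in that fit.

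XTH22 rose in these libraries too. Its controls lay between 11.6 and 35.9 CPM (median 14.5) and its heat libraries at 332, 322 and 271 CPM. The groups did not overlap (3.85 ± 0.25, adjusted p = 1.43e-09, and 3.72 in batch 1 alone). The highest controls, 35.9 and 21.9 CPM, were replicates 1 and 2 of batch 1. XTH23 was at 6.15 to 8.80 CPM in control (median 6.63) and at 11.3, 11.7 and 12.8 CPM in heat, which did not overlap (1.06 ± 0.29, adjusted p = 0.00523, and 0.70 in batch 1 alone).

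The next rises in these libraries were in XTH genes that did not rise in Col-0. XTH9 (AT4G03210), expressed in shoot apices, was at 80.2 to 126 CPM in control (median 96.3) and at 362, 374 and 349 CPM in heat, a clear separation (1.82 ± 0.15, adjusted p = 8.72e-09). XTH16 (AT3G23730) was at 35.2 to 56.1 CPM in control (median 43.4) and at 179, 187 and 167 CPM in heat, also clearly apart (1.82 ± 0.088, adjusted p = 9.2e-12). XTH33 was at 2.85 to 9.18 CPM in control (median 4.40) and at 17.7, 18.8 and 20.7 CPM in heat. Again no libraries overlapped (1.66 ± 0.23, adjusted p = 1.05e-05). XTH11 rose by 1.25 ± 0.27, XTH6 by 0.88 ± 0.33 (lost in 3 of 27 alternatives), XTH15 by 0.83 ± 0.16 and XTH30 by 0.80 ± 0.15. XTH18, XTH24, XTH14 and XTH7 rose by 1.00 ± 0.22, 0.92 ± 0.26, 0.64 ± 0.24 and 0.55 ± 0.22, of which XTH14 and XTH7 were lost in 5 and 10 of 27 alternatives.

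XTH13 fell in these libraries as far as it was measured. It was at 5.37 to 8.53 CPM in control (median 7.70) and at 0.132, 0.0316 and 0.0907 CPM in heat, with 16 counts in heat. No library overlapped (−6.40 ± 0.47, adjusted p = 4.07e-09, and −6.54 in batch 1 alone), and the ratio of XTH13 to XTH12 counts went from 0.601 to 0.785 in control to 0.00352 to 0.015 in heat. XTH12 had 10.9 ± 2.08 CPM without heat and 8.39 ± 0.858 CPM with it, which was not a called difference (−0.30 ± 0.24, adjusted p = 0.312, and called at −0.37 in batch 1 alone). XTH26 fell by 2.16 ± 0.43, and the summed root hair markers were at 89.1 to 155 CPM in control and 78.0 to 92.2 CPM in heat. Of these 8 markers 4 were called lower and 2 higher, against 28.7% and 27% of all genes. XTH8, XTH28, XTH19, XTH31 and XTH4 fell by 1.14 ± 0.14, 1.1 ± 0.10, 0.99 ± 0.11, 0.87 ± 0.15 and 0.61 ± 0.18.

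EXPA2 and EXPA1 had the largest falls of their family in the libraries labelled eTK. EXPA1 was at 152 to 216 CPM in control (median 195) and at 39.5, 34.3 and 32.0 CPM in heat, far under every control (−2.38 ± 0.15, adjusted p = 5e-10). EXPA2, an expansin of germination, was at 0.0268 to 0.523 CPM in control (median 0.280) and at 0.0988, 0.0949 and 0 CPM in heat. Its groups overlap, only 12 counts lie behind the heat value, and the call (−2.46 ± 0.80, adjusted p = 0.0142) was lost without heat replicate 3 (adjusted p = 0.0632). EXPA11, EXPA18, EXPA9, EXPA8, EXPA7 and EXPA17 fell by 1.33 ± 0.15, 1.24 ± 0.29, 1.21 ± 0.15, 1.18 ± 0.32, 1.17 ± 0.25 and 1.01 ± 0.34, the last lost in 1 of 27 alternatives. EXPA6, EXPA3, EXPA4, EXPA10 and EXPA13 fell by 0.88 ± 0.11, 0.78 ± 0.16, 0.75 ± 0.19, 0.71 ± 0.11 and 0.51 ± 0.13. EXPA5, EXPA12, EXPA14, EXPA15, EXPA16 and EXPA20 were not called (adjusted p from 0.0522 to 0.982).

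The difference in heat response between lines is given as an interaction term, the response in the libraries labelled eTK minus that in Col-0. Both heat comparisons were called in the same direction for 5 XTH genes higher (XTH22 and XTH23, and XTH7, XTH18 and XTH24, whose Col-0 calls were lost with library size alone) and for 16 members lower, 6 XTH and 10 alpha-expansin genes. Of all tested genes 19.8% were called higher and 22.5% lower in both lines. They were called in opposite directions for XTH16, XTH30 and XTH33 (lower in Col-0, higher in the other libraries) and for XTH31 (the reverse, with a Col-0 value that turned negative with library size alone), where 2.39% of all genes were called oppositely. The heat, interaction and line comparisons share libraries. Of 50 members the interaction was called for 17, 11 positive and 6 negative, where 25.1% of all genes were called (12.5% positive and 12.6% negative). By 1 or more on the log2 scale, 10 were positive and 3 negative, against 5.79% and 4.93% of all genes. With library size alone, which moved the median of all genes by 0.631, 29 were positive and 3 negative, against 63.1% and 4.51% of all genes.

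XTH23 differed most. Its interaction was −3.44 ± 0.41 (adjusted p = 5.03e-06), from a rise of 4.49 in Col-0 and 1.06 in the libraries labelled eTK, and −4.24 in batch 1 alone. The heat libraries were at 159 to 220 CPM in Col-0 and 11.3 to 12.8 CPM in the others. XTH22 differed by −1.60 ± 0.34 (adjusted p = 0.00174, −1.88 in batch 1 alone), and was called higher in both lines. XTH31 was at −1.31 ± 0.20 (adjusted p = 5.01e-05). XTH5, EXPA3 and EXPA1 were called at −0.78 ± 0.22, −0.60 ± 0.21 and −0.54 ± 0.19. Library size alone removed the call of XTH5 (−0.16) and turned EXPA3 to 0.03 and EXPA1 to 0.08, and over all 26 alternatives EXPA3 was lost in 17 and EXPA1 in 14 beside these.

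Positive interactions were led by XTH genes that fell in Col-0. XTH33 had 2.90 ± 0.35 (adjusted p = 4.53e-06), XTH16 had 2.30 ± 0.12 (adjusted p = 2.07e-11) and XTH30 had 1.86 ± 0.21 (adjusted p = 2.35e-06). In batch 1 alone XTH33, XTH16, XTH30 and XTH9 were at 2.52, 2.34, 1.64 and 1.92. The Col-0 heat libraries of XTH16 held 28.5, 29.0 and 34.5 CPM, within or under its controls of 30.6 to 44.7 CPM, and those labelled eTK at least 167 CPM. For XTH30 the heat libraries held 8.22 to 15.6 CPM in Col-0 and 42.8, 39.3 and 40.04 CPM in the libraries labelled eTK, whose controls were at 19.0 to 27.0 CPM (median 24.0). XTH9 had 1.67 ± 0.19, with Col-0 heat libraries at 153, 111 and 125 CPM that did not pass the test against control (adjusted p = 0.372). XTH6, XTH11, XTH27 and XTH21 followed at 1.39 ± 0.44, 1.32 ± 0.38, 1.12 ± 0.18 and 0.70 ± 0.25. XTH11 was at 0.67 in batch 1 alone (adjusted p = 0.105), and XTH21, an XTH of primary root growth, was lost in 13 and XTH6 in 4 of 26 alternatives.

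EXPA14, EXPA15 and EXPA16 were the alpha-expansin genes with positive interactions, at 1.59 ± 0.23, 1.39 ± 0.24 and 1.22 ± 0.20 (adjusted p = 3.97e-05, 0.000284 and 0.000109). EXPA14 (AT5G56320) held 3.49, 3.23 and 2.43 CPM in Col-0 heat against 7.53 to 12.3 CPM in control, and 8.24, 9.53 and 6.92 CPM against 6.62 to 10.5 CPM in the libraries labelled eTK. In Col-0 the groups were apart, in the others they overlapped (−0.08 ± 0.17, adjusted p = 0.7). EXPA15 (AT2G03090) held 9.63, 6.20 and 5.75 CPM in Col-0 heat and 15.6, 19.9 and 18.9 CPM in the heated libraries labelled eTK, from control medians of 25.9 and 24.9 CPM. EXPA16 (AT3G55500) held 2.01 to 2.27 CPM and 2.90 to 3.23 CPM in heat, from control medians of 4.87 and 2.92 CPM, and its lines differed in control. The other 14 alpha-expansin genes were not called in the interaction. With library size alone these 3 stayed called, at 2.22, 2.02 and 1.85.

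**Figure D4:**
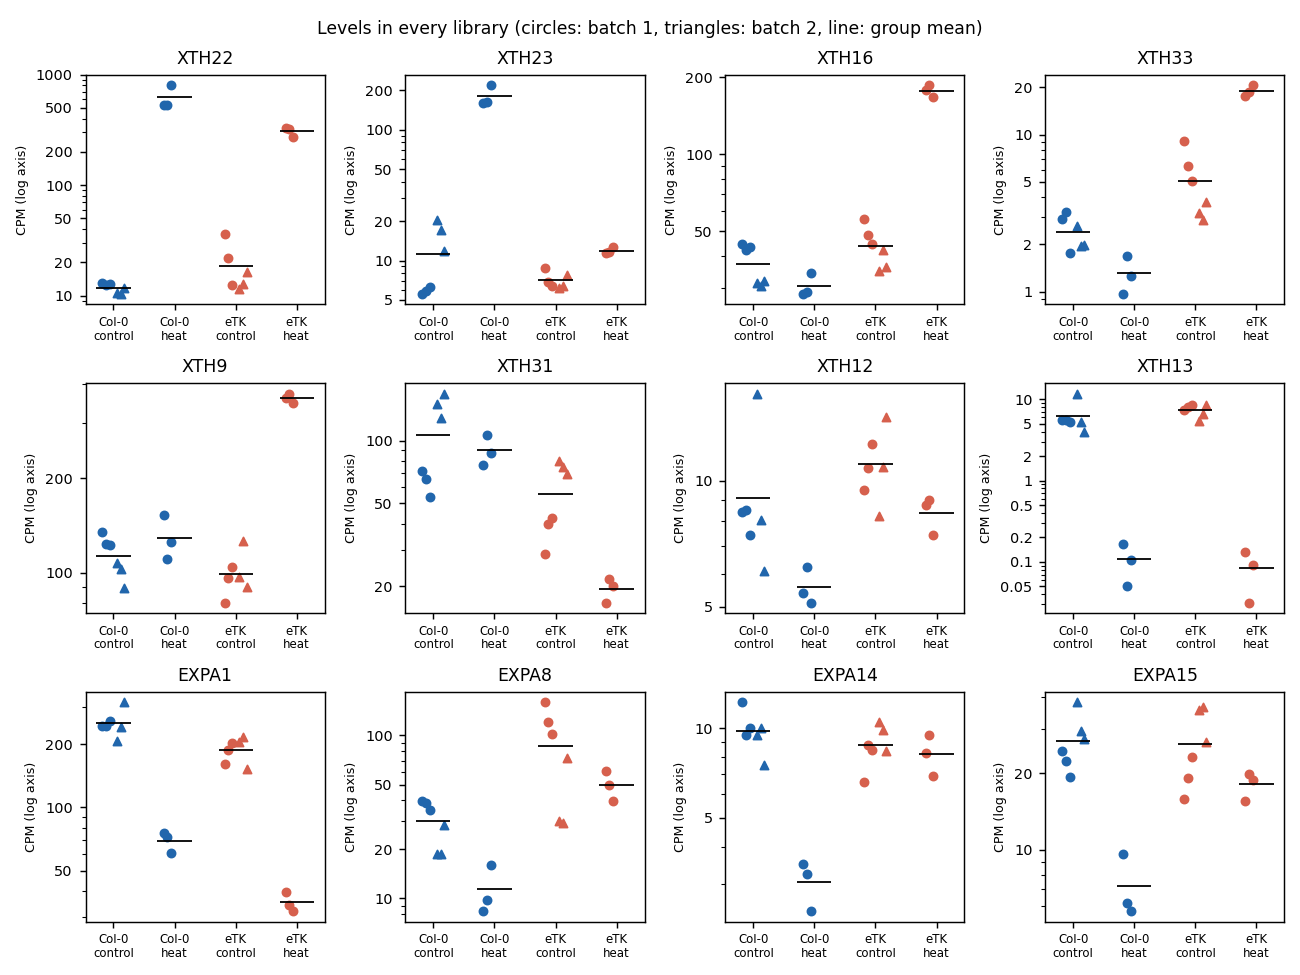
CPM on a log axis in every library for 12 members (circles batch 1, triangles batch 2, line the group mean) in the 4 groups. XTH23 reaches 159 to 220 CPM in Col-0 heat only, XTH16, XTH33 and XTH9 are highest in the heated libraries labelled eTK, and EXPA14 and EXPA15 are lowest in Col-0 heat.

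The lines were compared in control with 6 libraries each. The libraries labelled eTK were called higher for 11 and lower for 6 of 50 members, where 13.4% and 13.8% of all genes were called (27.2% in either direction), and by 1 or more for 2 and 0, against 2.96% and 4.38%. The median member difference was 0.02 and that of all genes 0.01. EXPA8 (AT2G40610), an expansin linked to elongation growth, was at 18.8 to 39.4 CPM in Col-0 (median 31.6) and at 29.2 to 160 CPM in the libraries labelled eTK (median 87.2). The groups overlap, and in both lines the batch 2 libraries lay below those of batch 1 (1.39 ± 0.24, adjusted p = 0.00032). Within batch 1 the EXPA8 difference was 1.77 and within batch 2 it was 1.00 (adjusted p = 9.05e-05 and 0.0888). XTH21 was at 2.34 to 3.58 CPM in Col-0 (median 3.08) and at 5.10 to 7.36 CPM in the others (median 6.22). These did not overlap (1.05 ± 0.14, adjusted p = 1.33e-05), and the difference was 0.83 in batch 1 and 1.27 in batch 2.

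Differences under 1 in control were called in both directions. Higher in the libraries labelled eTK were XTH33 by 0.98 ± 0.19, XTH19 by 0.81 ± 0.083, XTH17 by 0.79 ± 0.20, EXPA5 by 0.72 ± 0.16, EXPA11 by 0.69 ± 0.11, XTH22 by 0.59 ± 0.20, XTH4 by 0.45 ± 0.13, XTH8 by 0.40 ± 0.10 and XTH16 by 0.23 ± 0.068. Lower were XTH31 by 0.89 ± 0.11, EXPA9 by 0.81 ± 0.11, EXPA16 by 0.71 ± 0.11, XTH15 by 0.63 ± 0.13, EXPA7 by 0.63 ± 0.18 and EXPA1 by 0.43 ± 0.11. XTH19, EXPA9 and EXPA16 did so with no overlap of libraries. The XTH22 difference was 0.88 in batch 1 and 0.31 in batch 2 (adjusted p = 0.0447 and 0.191) and was lost in 8 of 28 alternatives. Of the 17 calls in control, 6 held in every alternative. EXPA7 and XTH16 were not called in either batch alone. XTH15 was at −0.26 and not called in batch 1 and at −1.01 and called in batch 2. XTH4, XTH8, XTH17, XTH33, EXPA1, EXPA5 and EXPA8 were not called in batch 2 alone. In batch 1 alone 16 members were called higher and 6 lower, against 12.1% and 10.8% of all genes in that fit. In batch 2 alone 3 were higher and 6 lower, against 5.54% and 10.6%.

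In heat the lines were compared with 3 libraries each, all of batch 1. The libraries labelled eTK were called higher for 17 and lower for 8 of 50 members, where 23.3% and 23.1% of all genes were called (46.4% in either direction), and by 1 or more for 11 and 3, against 9.64% and 8.21%. The median member difference was 0.30 and that of all genes 0.01, while scaling by library size alone called 33 higher and 2 lower, against 67.3% and 7.35% of all genes. XTH23 was lower by 3.93 ± 0.35, XTH31 by 2.21 ± 0.17 and XTH22 by 1.01 ± 0.27. XTH31 was at 76.1 to 106 CPM in Col-0 heat and at 16.7, 21.6 and 20.1 CPM in the others, with no overlap (adjusted p = 3.41e-09). Scaled by library size alone, the XTH22 difference was −0.37 and not called (adjusted p = 0.206), whereas those of XTH23 and XTH31 stayed called. XTH33, XTH16, EXPA8, XTH30, XTH21, XTH6, XTH11, XTH9, EXPA14 and EXPA15 were higher by 3.87, 2.54, 2.13, 1.80, 1.75, 1.75, 1.57, 1.48, 1.43 and 1.33. XTH29 was at 0 in Col-0 heat and at 0.395, 0.0791 and 0 CPM in the heated libraries labelled eTK, which overlap. With 29 counts in all, its pooled level was 6.33 times the floor of 3 counts over the group, a ratio that leaves out its own sampling error. The call (adjusted p = 0.0277) was lost in 4 of 24 alternatives.

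XTH27, EXPA5, EXPA11, XTH10, XTH19 and EXPA16 were higher in the heated libraries labelled eTK by 0.86, 0.88, 0.85, 0.78, 0.63 and 0.51. The XTH10 call was lost in 4 of 26 alternatives, batch 1 alone among them (adjusted p up to 0.147). EXPA1, XTH5, XTH32, EXPA13 and EXPA9 were lower by 0.97, 0.90, 0.52, 0.48 and 0.44. Library size alone moved the median of all genes by 0.636, and with it none of these 5 falls was called, and XTH32, EXPA13 and EXPA9 turned to 0.12, 0.16 and 0.19. XTH2, XTH20 (an XTH of roots), XTH25 and EXPA20, which overlaps an opposite-strand noncoding RNA by 1061 bases, were called in none of the comparisons of heat or line.

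Control libraries of the batches differed for many members, as they did for many of all genes, which bears on every comparison with all controls. In Col-0, batch 2 was called higher for 12 and lower for 2 of 50 members, where 19.5% and 15% of all genes were called (34.6% in either direction), and by 1 or more for 6 and 0, against 5.82% and 1.37%. In the libraries labelled eTK, 7 were higher and 9 lower, where 15.4% and 12.5% were called (27.8% in either direction), and by 1 or more 5 and 2, against 3.05% and 2.03%. XTH32 was at 12.2, 11.5 and 12.6 CPM in batch 1 and at 28.3, 24.8 and 38.7 CPM in batch 2 of Col-0. In the libraries labelled eTK it was at 8.23, 10.1 and 11.6 CPM and at 36.8, 32.8 and 39.1 CPM. The batches were apart in both lines, by 1.37 ± 0.15 and 1.90 ± 0.16. XTH31 differed by 1.26 ± 0.15 and 1.05 ± 0.15, XTH7 by 1.24 ± 0.22 and 1.26 ± 0.22, EXPA10 by 0.92 ± 0.10 and 1.16 ± 0.10 and EXPA4 by 0.45 ± 0.16 and 1.12 ± 0.16, of which the Col-0 call was lost in 9 of 16 alternatives (adjusted p up to 0.158). EXPA11 went the other way in both, by −0.70 ± 0.15 and −0.98 ± 0.15.

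Few members differed between batches in 1 line more than in the other, a share close to that of all genes. The test of line by batch called 0 members higher and 3 lower, XTH23, XTH11 and XTH18, where 2.36% and 3.51% of all genes were called (5.87% in either direction, and 0.278% and 1.89% by 1 or more). Batch 2 minus batch 1 was 1.52 ± 0.18 for XTH23 in Col-0 and −0.08 ± 0.18 in the libraries labelled eTK (line by batch −1.59 ± 0.25, adjusted p = 0.00571). XTH18 had 1.02 ± 0.15 and −0.09 ± 0.15, and XTH11 had 0.34 ± 0.24 and −0.99 ± 0.24. The XTH11 call for line by batch was lost in 9 of 16 alternatives, each without 1 library (adjusted p up to 0.101). The fit takes batches to differ alike in both lines, so for these 3 genes the values in batch 1 alone are the ones free of that assumption. There XTH18 rose in heat by 1.25 in Col-0 and 0.75 in the libraries labelled eTK, and XTH11 rose by 0.96 in the latter and was not called in Col-0 (0.29, adjusted p = 0.219). XTH2 was called in Col-0 only (1.82 ± 0.56), on 96 counts over 6 libraries. EXPA8 and XTH33 were lower in batch 2 of the libraries labelled eTK by 1.50 ± 0.34 and 1.04 ± 0.24.

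**Figure D5:**
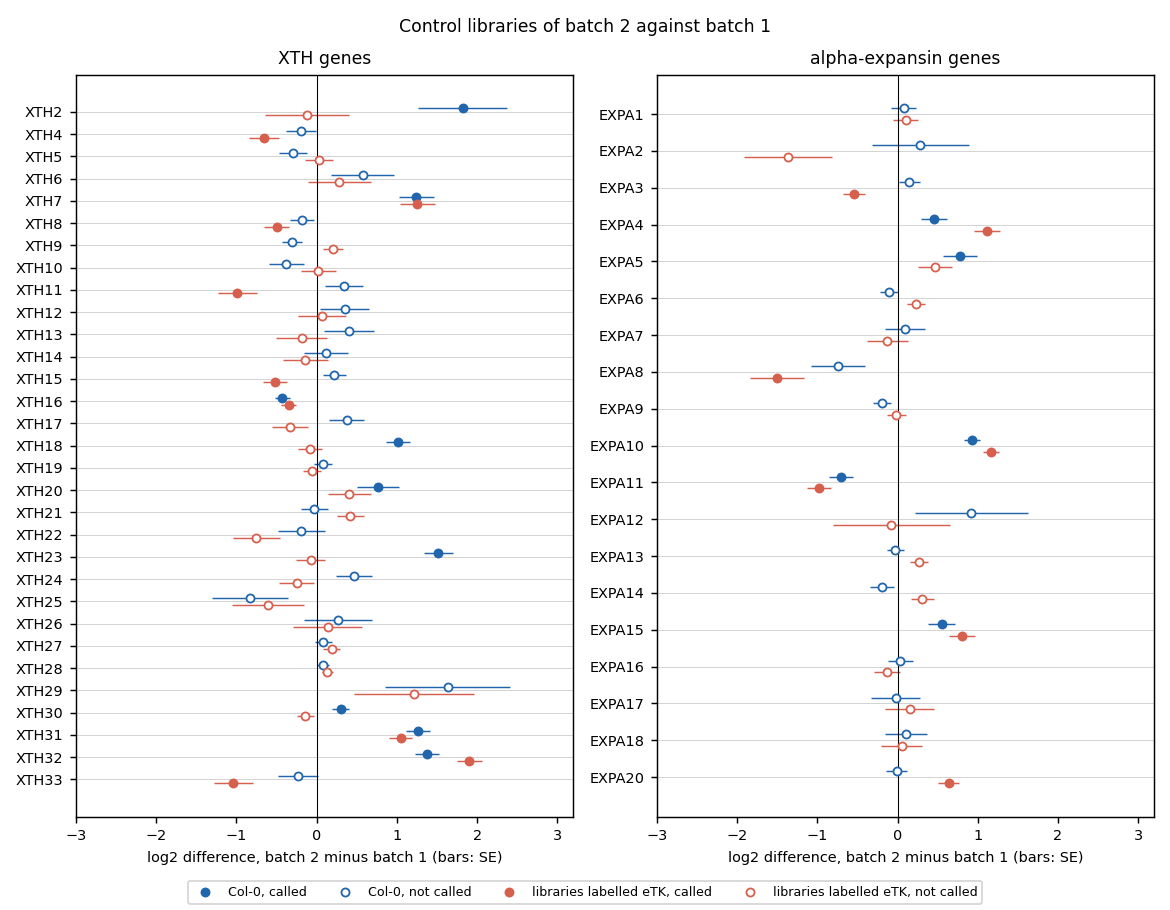
Log2 difference of batch 2 against batch 1 among control libraries (horizontal axis, bars: SE, 3 libraries a batch) for the tested XTH and alpha-expansin genes in both lines, with filled points for called differences. XTH7, XTH31 and XTH32 stand right of 1 in both lines, and XTH23 and XTH18 do so in Col-0 but not in the libraries labelled eTK.

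Other genes of wall loosening and of the wall it acts on were described from lists chosen by function. All 10 genes of xyloglucan synthesis and trimming were called lower in both lines (medians −0.73 and −0.90), as were 22.5% of all genes. XYL1, the alpha-xylosidase that trims xyloglucan, fell by 2.08 ± 0.13 in Col-0 and 2.02 ± 0.13 in the libraries labelled eTK, and CSLC4, a synthase of the xyloglucan backbone, by 1.67 ± 0.15 and 0.85 ± 0.14. MUR3, a galactosyltransferase, fell by 0.48 ± 0.081 and 1.46 ± 0.084. Of 8 genes of cellulose synthesis in primary walls 4 were lower and 0 higher in either line. Of all genes 32.4% were lower and 31.2% higher in Col-0, and 28.7% and 27% in the libraries labelled eTK. The lower ones included COB, which orients cellulose deposition, by 1.36 and 1.46, and CSI1, which links synthase to microtubules, by 0.91 and 0.68. Genes known to rise on touch, as XTH22 does, were all higher, 6 of 6 in both lines (medians 2.77 and 2.80), as were 19.8% of all genes. Among them ZAT10, a zinc finger repressor, rose by 5.07 ± 0.28 and 3.50 ± 0.26, and CML12, the calmodulin-like touch gene TCH3, by 3.33 ± 0.18 and 4.02 ± 0.18.

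The expansins outside the 19 genes gave mixed calls. Of 17 such genes 16 were in the table and 7 were tested, with 2 higher and 2 lower in Col-0 heat and 3 higher and 1 lower in the libraries labelled eTK. Of all genes 31.2% were called higher and 32.4% lower in Col-0, and 27% and 28.7% in the libraries labelled eTK. EXLA1, an expansin-like gene, was at 13.0 and 27.0 CPM in Col-0 control and heat (0.64 ± 0.15) and at 17.1 and 98.2 CPM in the libraries labelled eTK (2.16 ± 0.14), with an interaction of 1.51 (adjusted p = 7.87e-06). EXPA21 fell by 1.60 and 2.12. Of 8 brassinosteroid genes 2 were higher and 4 lower in Col-0, and 2 and 3 in the libraries labelled eTK, with BR6OX2, an enzyme of the last synthesis steps, lower by 1.28 and 1.16 (list medians −0.25 and −0.26).

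Markers of other organs and stages were read in the same libraries. For all lists here, 31.2% of all genes were called higher and 32.4% lower in Col-0 heat, and 27% and 28.7% in the libraries labelled eTK. Of 8 root markers 1 was called higher and 5 lower in Col-0 heat (median −1.19), and 0 and 4 in the libraries labelled eTK (median −0.64). SCR, a regulator of the endodermis, fell by 2.05 ± 0.15 and 1.31 ± 0.14, and WOX5, of the quiescent centre, rose by 2.95 ± 0.29 in Col-0 and was not called in the libraries labelled eTK (adjusted p = 0.724). Their summed level was 132 to 157 CPM in Col-0 control and 104 to 120 CPM in heat, and 136 to 156 and 121 to 128 CPM in the libraries labelled eTK. Of 8 shoot and leaf markers 5 were called lower and 0 higher in both lines (medians −0.87 and −0.50), with sums of 12100 to 20900 and 13100 to 17300 CPM in Col-0 and 14100 to 21100 and 11400 to 12700 CPM in the libraries labelled eTK. Of 5 tested seed and embryo markers 3 were called higher in Col-0 heat and 1 in the libraries labelled eTK. The seed sums in Col-0 ran from 0.392 to 2.86 CPM without heat and from 0.29 to 113 CPM with it, and were 6.89 to 59.8 and 11.0 to 32.3 CPM in the libraries labelled eTK. None of these markers was at 0 in a whole group, and their part in the results for XTH and alpha-expansin genes was not tested.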

How the data were processed

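RNA-seq libraries of whole Arabidopsis thaliana seedlings were read from one table of counts per gene. The counts were deposited by the authors without normalization, 1 column per library. Per the submitters' processing notes the tools included STAR 2.7.9a, Subread 2.0.6 with featureCounts, and fastp 0.24.0, while settings, genome build, annotation and strand use are not given in the sources used here. Samples of another species in the series were not analysed here. Groups, replicates and batches were taken from the labels. Since nothing in the labels ties replicates to separate cultures, a p-value speaks of the spread among these libraries only, possibly a technical one. Total counts were 58370609 to 110875442 per library. Of the non-zero counts, 75.4 to 83.3% were even in a library, so both mates of a pair may have been counted.

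Genes passing edgeR's filterByExpr (minimum count 10) were kept, 22696 of 27655. TMM factors were applied, and a robust quasi-likelihood model (edgeR 4.0.16, R 4.3.3, limma 3.58.1) with group and batch terms was fitted over 18 libraries. The batch comparisons came from a separate fit of the 12 control libraries with line and batch. Adjusted p-values are Benjamini-Hochberg values over all tested genes at a threshold of 0.05, and SE is the log2 difference divided by the square root of F. RPKM used exon lengths of the RefSeq annotation of TAIR10.1, and promoters came from its genome by locus tag. A floor of 3 counts over a group stands for groups at 0, and it would be fewer read pairs if both mates were counted. The edgeR fit was tested on simulated data for heat in Col-0 only, and the other comparisons and steps were not. Alternatives were other scalings, no filter, DESeq2 1.42.0, single batches, only the groups compared, a replicate block, halved counts, and leaving out each library.

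Members and lists were chosen with earlier results of these data known. Named with values were XTH22, members called with a log2 difference of 1 or more (up to the 12 largest in a comparison, the 4 largest with every library), members of gene rows moving in opposite directions, members at 0 in a group, and called genes of largest change per list. Further members were named after their values were seen.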

Additional observations from a re-analysis of the deposited data

Results flagged for a closer look

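In 12 of 100 groups of 6 control libraries, 1 library lay apart from the other 5 by more than the Dixon critical value of 0.625 of the range. Chance marks about 1 group in 20 where the 6 values are independent and from one normal population. Each group here held both batches, and the groups share libraries, so the 12 cannot be set against that rate. Col-0 control replicate 6 was the high library for XTH6 (61.72 CPM), XTH17 (33.09 CPM), XTH27 (115.3 CPM), XTH28 (67.17 CPM), EXPA3 (78.16 CPM) and EXPA5 (40.48 CPM). Col-0 control replicate 4 was the high library for XTH12 (16.12 CPM), XTH13 (11.78 CPM) and XTH26 (13.19 CPM). The others were XTH6 in eTK control replicate 6 (60.08 CPM), XTH25 in Col-0 control replicate 2 (0.5033 CPM) and XTH29 in eTK control replicate 5 (0.2953 CPM).

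For 17 members the response to heat differed between the lines by edgeR's interaction test, in log2 units as the libraries labelled eTK minus Col-0. The positive values were 2.899 for XTH33, 2.3 for XTH16, 1.856 for XTH30, 1.669 for XTH9, 1.591 for EXPA14, 1.388 for XTH6, 1.388 for EXPA15, 1.321 for XTH11, 1.223 for EXPA16, 1.12 for XTH27 and 0.7014 for XTH21. The negative values were −3.437 for XTH23, −1.604 for XTH22, −1.314 for XTH31, −0.7841 for XTH5, −0.5976 for EXPA3 and −0.5422 for EXPA1. With library size alone EXPA3 and EXPA1 changed sign.

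For 3 members the difference between batches differed between the lines in control, by −1.591 for XTH23, −1.332 for XTH11 and −1.102 for XTH18.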

How the results depend on the processing

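The 92 results held counts of called members and genes as well as single member calls, but not every member call. Of 2180 recomputed values, 2119 were scored as unchanged, 31 lost the call, 30 moved and 0 reversed. Unchanged means the same direction and side of the threshold for a member call, and a number within a set ratio for a count. By that rule, 37 members lower in Col-0 heat with library size alone were scored as unchanged from 26. A count could be scored only as unchanged or moved, never as reversed. Of 126 member calls outside the batch comparisons, 87 held in every alternative and 8 changed sign in 1 or more. These 8 all had log2 differences under 1 and were not among the 92, so the 0 does not cover them. Library size alone gave 2 members higher in Col-0 heat. It gave 29 positive and 3 negative interactions (15347 genes), and 33 members higher and 2 lower in the libraries labelled eTK in heat (16939 genes). It also gave 5 negative calls for line by batch. Its construction leaves out the TMM factors, whose effect on the median of all genes is given in the report. In batch 2 alone 3 members were higher in the libraries labelled eTK in control (3571 genes), on 3 libraries a line. DESeq2 called line by batch positive for 2 members and negative for 5 (2785 genes), and the cause was not tested. Leaving out 1 library gave 5 to 8 members lower in the libraries labelled eTK in heat (5 without eTK heat replicate 1), 7 to 13 higher in batch 2 of Col-0 (7 without Col-0 control replicate 3) and 5 to 10 lower in batch 2 of the libraries labelled eTK (5 without eTK control replicate 1). Line by batch then gave 0 to 2 positive and 2 to 8 negative members and 478 to 3321 genes (3321 without eTK control replicate 6).

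The deviations of same-numbered libraries correlated at −0.217 to 0.232. They were above 0.1 for the controls of replicates 5 and 6 (0.142 and 0.232) and for eTK control and heat replicate 1 (0.115). This did not hold for every pair, so the numbers were not taken to pair samples. With the replicate block, Col-0 heat gave 8 members higher and 25 lower (14143 genes), heat in the libraries labelled eTK 12 and 20 (12296 genes), the interaction 10 and 5 (5208 genes), the lines in control 11 and 6 (5735 genes) and in heat 17 and 8 (10051 genes). Members under about 0.5 CPM, such as XTH2, XTH29, EXPA2 and EXPA12, rest on few counts, and folds against 0 are ratios to the floor.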

Other observations

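Genes of acid growth differed between the lines in control. Of 9 such genes, 5 were called higher and 2 lower in the libraries labelled eTK (median 1.26), against 13.4% and 13.8% of all genes. With heat 1 was higher and 1 lower in Col-0, against 31.2% and 32.4% of all genes. In the libraries labelled eTK heat gave 2 higher and 0 lower, against 27% and 28.7%. SAUR19, a small auxin-induced protein that raises proton pump activity, had a mean of 4.10 CPM in the libraries labelled eTK against 0.257 CPM in Col-0 (4.01 ± 0.27, adjusted p = 1.67e-09 by edgeR). SAUR22, SAUR21, SAUR23 and SAUR24 were higher by 1.91 ± 0.30, 1.67 ± 0.29, 1.28 ± 0.29 and 1.26 ± 0.36, all at levels under 5 CPM, and these near-identical genes may share reads. The proton pumps AHA1 and AHA2 were lower by 0.19 ± 0.061 and 0.31 ± 0.11.

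EXLA2 and EXLA3, expansin-like genes, rose in the heated libraries labelled eTK by 0.94 ± 0.18 and 1.35 ± 0.39 and were not called in Col-0 (0.16 ± 0.19 and −0.37 ± 0.43). Their interactions were 0.78 ± 0.24 and 1.72 ± 0.55 (adjusted p = 0.0231 and 0.0274 by edgeR).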
